A study of Mus musculus with 9 samples.

Results

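C/D box small nucleolar RNAs (snoRNAs) were taken as the genes of biotype snoRNA in the mouse GENCODE annotation whose symbol is Snord followed by a number. The rule found 76 genes among the 52408 with values, and each of them had 1 annotated transcript. Only 5 of the 76 had any value above 0, namely Snord22, Snord15a, Snord15b, Snord17 and Snord118, and these 5 were above 0 in all 9 libraries. The other 71 were listed at 0 in all 9 libraries. Of the 98 such genes in the annotation, the 22 outside the table were not analysed here, and Snord43, which carries the symbol but another biotype, was left out by the rule.

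The libraries were made from total RNA of MIN6 cells, a mouse insulinoma line used as a model of the pancreatic beta cell. There were 3 groups of 3 libraries each. Control cells were untransfected, a second group overexpressed Nr4a1, an orphan nuclear receptor, and in the last group cells overexpressing Nr4a1 received EGCG (epigallocatechin gallate, the main catechin of green tea). The sample titles and column names give no batch, and all 9 libraries were treated as 1 batch. Neither the dose and duration of EGCG nor the means of overexpression is given in the sources used here. The control cells were untransfected, so the effects of transfection and of Nr4a1 cannot be told apart. Nr4a1 was at 0.63, 0.78 and 0.76 TPM (a length-corrected share of a library's transcripts) in control, 128.3, 122.52 and 165.18 TPM with overexpression, and 46.25, 60.91 and 54.46 TPM with EGCG. Libraries with EGCG thus differed from those with overexpression alone both in EGCG and in a lower Nr4a1 transcript. All 9 beta cell markers examined were present, with Ins2 at a mean of 16108, 20635 and 17195 TPM in the 3 groups. Of 19 markers of other cells, 17 were under 1 TPM in every library, the exceptions being the alpha cell genes Gcg and Irx2. Summed TPM of these 19 markers ran from 320.5 to 337.3 in control, from 730.2 to 811.1 with overexpression and from 294.8 to 327.0 with EGCG.

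C/D box snoRNAs are nucleolar RNAs held together by a C box near the 5′ end and a D box near the 3′ end. Most of them pair with ribosomal RNA and guide the methyltransferase fibrillarin (Fbl) to a ribose, in a particle with Nop56, Nop58 and Snu13, while a few take part in cutting the ribosomal RNA precursor. Most vertebrate snoRNAs are released from introns of host genes, many of which encode ribosomal proteins or are themselves noncoding, by debranching and exonuclease trimming. Snord22 (U22) is known to be needed for processing of the small-subunit ribosomal RNA, and Snord118 (U8) for that of the large-subunit RNAs. The Snord15 RNAs (U15) lie in introns of the ribosomal protein gene Rps3.

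The sequences of the 5 measured snoRNAs are shown first, since all results rest on them, in the order of their mean level. They are annotated transcripts of GENCODE M21 (GRCm38 build), written 5′ to 3′ as DNA, and capitals mark each exact TGATGA (the core of the C box) and CTGA (the D box).

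Snord22: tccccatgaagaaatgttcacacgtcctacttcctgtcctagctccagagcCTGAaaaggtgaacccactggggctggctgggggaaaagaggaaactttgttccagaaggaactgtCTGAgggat

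Snord15b: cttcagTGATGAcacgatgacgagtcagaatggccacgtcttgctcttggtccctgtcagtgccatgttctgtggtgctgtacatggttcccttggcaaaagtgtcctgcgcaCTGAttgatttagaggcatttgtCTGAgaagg

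Snord15a: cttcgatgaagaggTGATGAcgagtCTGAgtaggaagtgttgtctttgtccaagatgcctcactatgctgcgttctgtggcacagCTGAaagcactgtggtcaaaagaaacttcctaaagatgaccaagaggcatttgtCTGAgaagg

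Snord17: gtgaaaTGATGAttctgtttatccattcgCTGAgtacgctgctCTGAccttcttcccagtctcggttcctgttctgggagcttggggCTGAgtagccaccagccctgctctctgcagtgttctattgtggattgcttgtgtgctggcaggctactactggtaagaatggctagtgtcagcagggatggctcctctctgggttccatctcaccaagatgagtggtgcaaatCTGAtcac

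Snord118: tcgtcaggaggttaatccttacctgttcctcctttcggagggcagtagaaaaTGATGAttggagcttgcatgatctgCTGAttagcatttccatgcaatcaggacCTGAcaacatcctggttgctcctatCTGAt

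The 5 RNAs are 126 (Snord22), 145 (Snord15b), 148 (Snord15a), 238 (Snord17) and 135 nt (Snord118) long. A CTGA lay within the last 15 bases of all 5. An exact TGATGA began at base 7 in Snord15b and Snord17 and at base 15 in Snord15a. In Snord118 the only TGATGA began at base 53, and Snord22 held none, which says only that these letters are absent from the annotated transcript. Snord15a and Snord15b were identical at 66.0% of alignment columns (107 of 162), and their longest shared run is the 3′ end with its D box, 21 nt long.

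Shared run of Snord15a and Snord15b: agaggcatttgtCTGAgaagg

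For comparison, the shortest and the longest of the 71 snoRNAs listed at 0 are Snord37, in the elongation factor gene Eef2, and Snord67, in the microtubule regulator gene Ckap5. Both carry the same motifs.

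Snord37: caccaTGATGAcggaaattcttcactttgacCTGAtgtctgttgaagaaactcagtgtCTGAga

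Snord67: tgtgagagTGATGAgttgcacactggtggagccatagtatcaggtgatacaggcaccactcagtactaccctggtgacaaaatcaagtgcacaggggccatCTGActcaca

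Snord37 is 64 nt and Snord67 is 111 nt long, with TGATGA at base 6 and base 9. Among all 76 C/D box snoRNAs, 48 (63.2%) had TGATGA on the transcribed strand within the first 20 bases, 70 (92.1%) had CTGA within the last 15, and 46 (60.5%) had both. Among 38 Snora genes, the H/ACA box class that guides pseudouridylation, 0, 3 and 0 did. Of 2974 other small RNA genes of 64 to 238 nt, 2.8%, 8.5% and 2.2% did. Of the 71 snoRNAs listed at 0, 63.4% had the TGATGA and 91.5% the CTGA in these windows, and of the 5 with values 3 and 5 did. No 2 of the 76 had the same sequence.

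Whether a C/D box snoRNA had a value followed its length. The 71 at 0 are 64 to 111 nt long (median 78.0), and the 5 with values are 126 to 238 nt long. The same limit ran through the entire table: all 2372 transcripts of at most 111 nt were listed at 0 in every library, against 45 of 419 (10.7%) above 0 at 112 to 125 nt, 16.8% at 126 to 150 nt and 32.0% at 201 to 250 nt. The shortest transcript above 0 was 112 to 116 nt long in every library. A listed 0 below that length is therefore no measurement of expression. What set the limit is not stated by the labels.

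**Figure D1:**
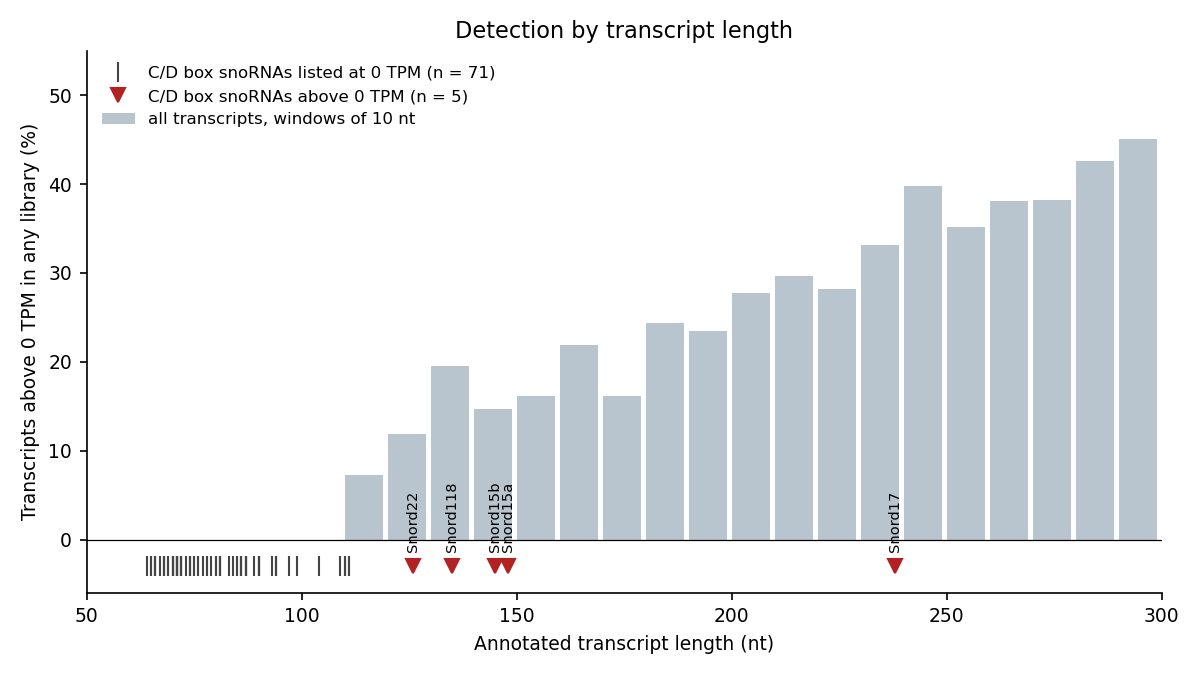
Share of transcripts above 0 TPM in any library (bars, percent, windows of 10 nt) against annotated length in nt. Ticks below the zero line mark the lengths of the 71 C/D box snoRNAs listed at 0, all at 111 nt or less, and triangles the 5 with values, all at 126 nt or more.

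By known role, 6 of the 76 belong to RNAs known for cutting of the ribosomal RNA precursor, of which Snord22 and Snord118 had values while Snord13 and 3 Snord14 genes were at 0. All 3 from the imprinted clusters best known in brain (Snord116l9, Snord107 and Snord64) were at 0, and 3 of the remaining 67 had values. By host, 20 lie in noncoding genes, 34 in protein-coding genes other than those of ribosomal proteins, 19 in ribosomal protein genes and 3 in no annotated host. The 69 snoRNAs at 0 that have a host lie in 49 host genes, of which 37 averaged at least 10 TPM (median of the 49, 25.3 TPM). Most of these hosts thus had values while the snoRNAs inside them were listed at 0.

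All 5 measured C/D box snoRNAs were higher with Nr4a1 overexpression than in control. Snord22 rose most, 5.17-fold by group means, and Snord118 2.26-fold, Snord17 1.91-fold, Snord15a 1.57-fold and Snord15b 1.33-fold. In this comparison 38.2% of the 11950 genes tested were called higher and 59.5% were called changed. The 5 had a median log2 fold change of 0.95, against 0.10 over all genes tested. The 2 groups did not overlap for 4 of the 5, all but Snord15b, nor for 65.0% of all genes tested, in either direction. All 5 were above 1 TPM in every library, so none entered the test through its higher group alone. In each comparison genes were tested with limma on log2(TPM + 1) over all 9 libraries, with Benjamini-Hochberg adjustment over all genes tested and a call at an adjusted p under 0.05. Nothing in the labels says that the 3 libraries of a group were separate cultures, so p-values reflect only how far these libraries spread, which may be technical.

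Snord22 was at 491.49, 484.62 and 1190.81 TPM in controls, 4124.15, 3774.54 and 3313.96 TPM with overexpression, and 5643.73, 3309.84 and 2737.65 TPM with EGCG. Both overexpressing groups lay wholly above control, and control replicate 3 was the highest of the controls. The log2 fold change with overexpression was 2.50 ± 0.363 (SE; limma, Benjamini-Hochberg adjusted p = 0.0003491). Without control replicate 3 it was 2.93 (limma, Benjamini-Hochberg adjusted p = 4.8e-05), and without control replicate 2 it was 2.28 (limma, Benjamini-Hochberg adjusted p = 0.0017). Between the EGCG and the overexpression groups, whose values overlapped, the log2 difference was 0.00 ± 0.363 (SE), with a 95% interval from -0.82 to 0.82 (limma, Benjamini-Hochberg adjusted p = 0.9933).

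Snord118, the U8 RNA, which has its own transcription unit, was the lowest of the 5. It was at 22.36, 20.97 and 30.59 TPM in controls, 32.41, 59.49 and 74.94 TPM with overexpression, and 112.11, 48.50 and 65.08 TPM with EGCG. Each overexpressing library exceeded each control, by a narrow margin for overexpression replicate 1. The log2 fold change with overexpression was 1.08 ± 0.349 (SE; limma, Benjamini-Hochberg adjusted p = 0.02406). This call was lost without any of 4 libraries, control replicates 1 and 2 and overexpression replicates 2 and 3, with limma adjusted p from 0.0638 to 0.0876. The overexpression and EGCG groups overlapped (log2 difference 0.42, 95% interval from -0.37 to 1.21; limma, Benjamini-Hochberg adjusted p = 0.3326).

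Snord15b, in an intron of Rps3, was at 681.79, 547.03 and 852.18 TPM in controls, 1006.95, 917.57 and 847.45 TPM with overexpression, and 1295.79, 1055.78 and 1274.53 TPM with EGCG. The lowest overexpressing library lay just under control replicate 3, so these groups overlapped, whereas every EGCG library lay above all others. The log2 fold change with overexpression was 0.43 ± 0.155 (SE; limma, Benjamini-Hochberg adjusted p = 0.037). Without control replicate 2 it was 0.27 (limma, Benjamini-Hochberg adjusted p = 0.123), and the call was also lost without control replicate 1 or overexpression replicates 1 or 2.

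Snord15a, its neighbour in Rps3, was at 133.80, 84.05 and 166.92 TPM in controls, 214.92, 189.43 and 199.58 TPM with overexpression, and 268.63, 198.56 and 284.65 TPM with EGCG. All overexpressing libraries lay above all controls. The log2 fold change with overexpression was 0.70 ± 0.226 (SE; limma, Benjamini-Hochberg adjusted p = 0.02426), and it was 0.43 without control replicate 2 (limma, Benjamini-Hochberg adjusted p = 0.052). The call was also lost without overexpression replicate 1 or 3. Snord15b exceeded Snord15a in every library, by 5.57 ± 0.813 times in control, 4.59 ± 0.310 with overexpression and 4.87 ± 0.422 with EGCG (each SD over 3 libraries).

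Snord17, in an intron of the sorting nexin gene Snx5, was at 71.86, 67.86 and 108.63 TPM in controls, 160.50, 167.57 and 145.82 TPM with overexpression, and 134.54, 149.19 and 115.72 TPM with EGCG. Both overexpressing groups lay above control and overlapped each other. The log2 fold change with overexpression was 0.95 ± 0.167 (SE; limma, Benjamini-Hochberg adjusted p = 0.001031). Snord22 and Snord17 kept their calls of overexpression against control when any single library was left out.

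**Figure D2:**
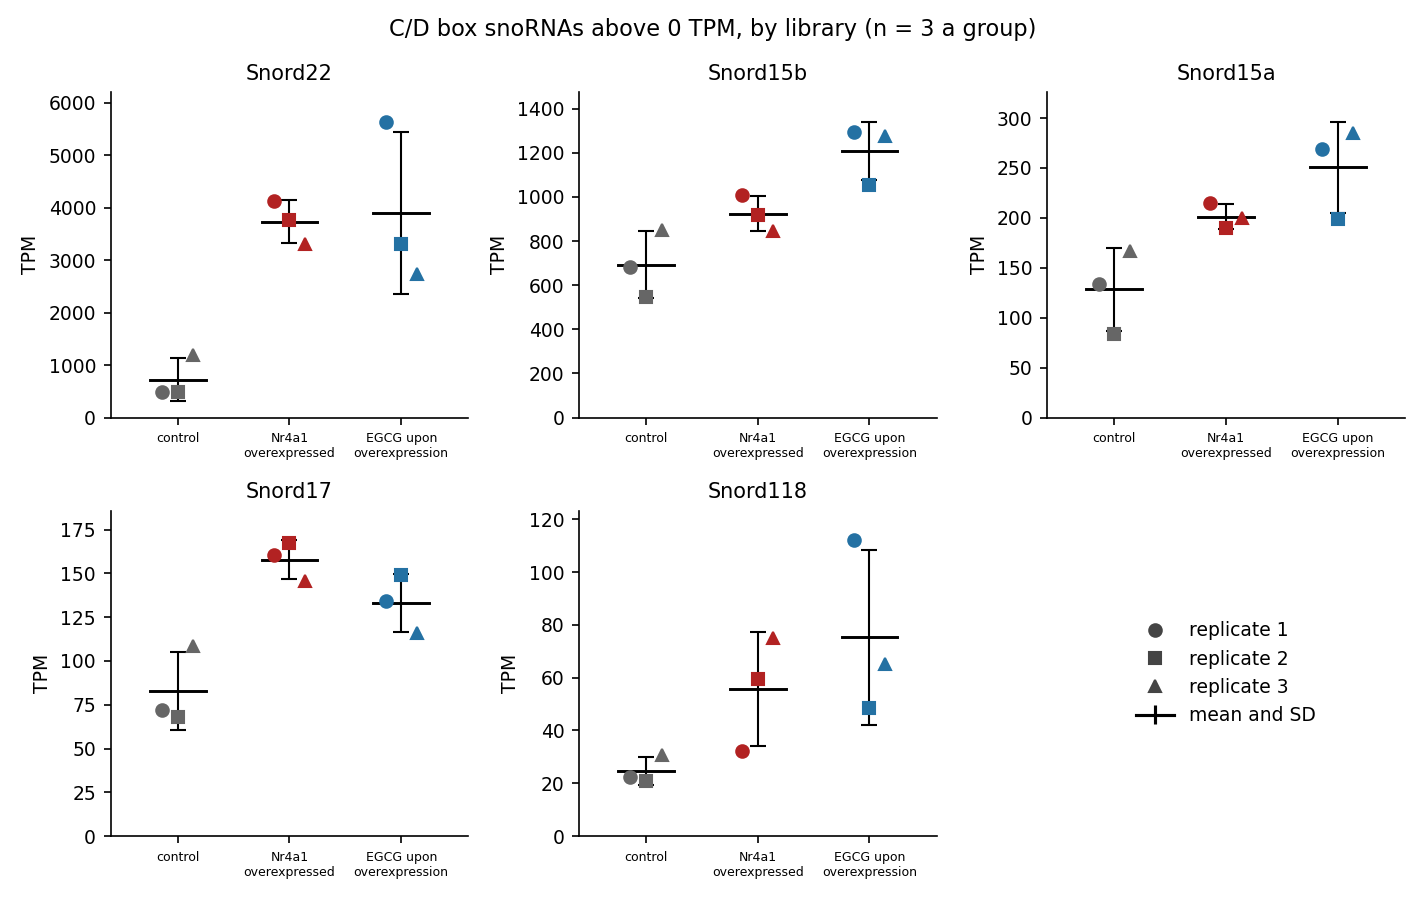
TPM of the 5 C/D box snoRNAs above 0 in each library, with the group mean and SD (n = 3; each axis starts at 0). Snord22 lies between 484.62 and 1190.81 TPM in control and between 2737.65 and 5643.73 TPM in the other 6 libraries.

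The share of Snord22 in the summed TPM of the 76 was 35.1%, 40.2% and 50.7% in control, 74.5%, 73.9% and 72.3% with overexpression, and 75.7%, 69.5% and 61.1% with EGCG. In control replicates 1 and 2 Snord15b was the most abundant of the 5, and in the other 7 libraries Snord22 was. The summed TPM was 1652 ± 612 in control, 5076 ± 479 with overexpression and 5565 ± 1643 with EGCG (each SD over 3 libraries).

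Some of these values rest on few reads, those of Snord118 most of all. At a given length, low TPM values in a library lay near multiples of a step, taken as the worth of 1 read, which let reads be estimated. The step was fitted in each library to these same values, so as to bring them near whole multiples. After the fit, 63.4% of low values at 124 to 149 nt and 58.9% at 215 to 262 nt fell within 0.06 of a whole number of reads. Evenly spread values would give 12% only for a step fixed beforehand, so these shares do not test the estimates. Snord22 came to about 26, 27 and 117 reads in control, 515, 410 and 398 with overexpression, and 751, 451 and 392 with EGCG. Snord118 came to about 2, 2 and 5 reads in control, with exact Poisson 95% intervals of 0.24 to 7.22, 0.24 to 7.22 and 1.62 to 11.7, against 7, 11 and 15 with overexpression and 25, 11 and 15 with EGCG. The intervals cover counting error only. In the controls Snord15a came to about 22, 15 and 48 reads. Snord15b came to about 100, 87 and 218 there, and Snord17 to 94, 102 and 234. For Snord22 a single read was worth 18.6, 18.1 and 10.2 TPM in controls, 8.01, 9.20 and 8.33 with overexpression and 7.51, 7.34 and 6.98 with EGCG, so the control libraries, and replicates 1 and 2 in particular, were read less deeply at this length.

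TPM also divides by an effective length that shrinks steeply near the detection limit. A read at 126 nt, the length of Snord22, was worth 21.9 to 27.2 times as much as a read at 238 nt in control, 21.9 to 24.9 times with overexpression and 20.9 to 23.5 times with EGCG. The order of the 5 RNAs in TPM therefore rests on length: in reads Snord17 exceeded Snord22 in all 3 control libraries and in overexpression replicate 2 and EGCG replicate 2.

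Other signals moved with the same groups. Summed TPM over 1753 chemoreceptor genes, which are silent in most tissues, was 121.1, 101.3 and 61.3 in control, 5.42, 4.78 and 5.10 with overexpression, and 10.3, 9.29 and 13.8 with EGCG. Control replicate 3, which had the highest value of each of the 5 snoRNAs among the controls, had the lowest chemoreceptor sum among them. The part of this background signal in the snoRNA differences was not tested.

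No C/D box snoRNA was called between EGCG and overexpression alone, where 53.0% of all genes tested were called changed. Only 1 of the 5, Snord15b, had an unadjusted p under 0.05 in limma. It was higher with EGCG by 0.38 ± 0.155 (SE) on the log2 scale, with groups that did not overlap, as for 64.7% of all genes tested (limma, Benjamini-Hochberg adjusted p = 0.06294). This was past the threshold under quantile normalization (0.50; limma, Benjamini-Hochberg adjusted p = 0.0165), and other settings that called it stand in the closing section. Snord15a differed by 0.30 (95% interval from -0.21 to 0.81) and Snord17 by -0.25 (-0.63 to 0.13), both within the spread of libraries. The intervals are wide enough to hold changes of the size seen for Snord15b, so a lack of calls does not show equal levels.

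Against control, all 5 were also higher in the EGCG group, where 11.1% of all genes were called higher, 7.1% lower and 18.2% changed. This comparison shares the control libraries with the first, so the calls are not separate evidence. Log2 fold changes were 2.50 for Snord22 (limma, Benjamini-Hochberg adjusted p = 0.004844), 1.50 for Snord118 (adjusted p = 0.02198), 1.00 for Snord15a (adjusted p = 0.01995), 0.82 for Snord15b (adjusted p = 0.01114) and 0.70 for Snord17 (adjusted p = 0.02337). All control libraries lay below all EGCG libraries for each of the 5, as they did for 34.9% of all genes in either direction. With single libraries left out, only Snord22 and Snord15b kept this call throughout, and without EGCG replicate 1 they were the only 2 of the 5 called. Snord17 lost it with the replicate number as a block (limma, Benjamini-Hochberg adjusted p = 0.0569).

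**Figure D3:**
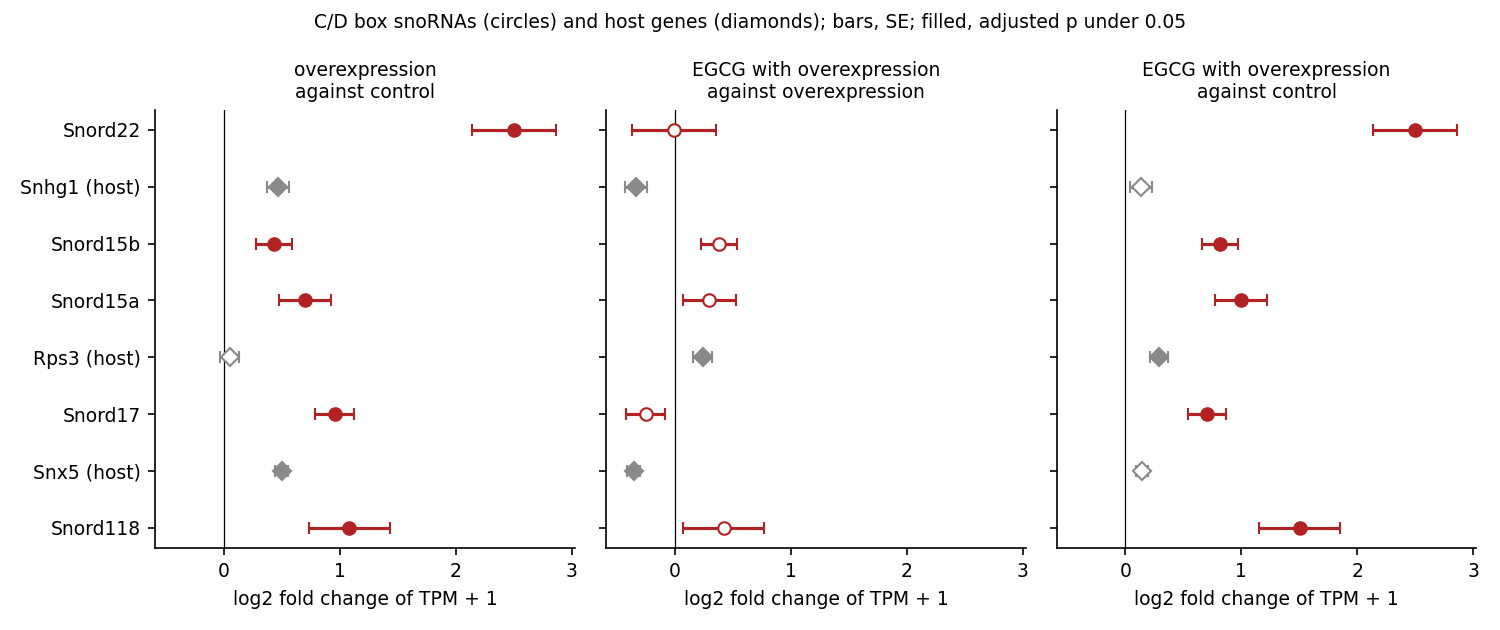
Log2 fold change of TPM + 1 with its SE for the 5 C/D box snoRNAs (red circles) and the host genes of 4 of them (grey diamonds) in the 3 comparisons; filled symbols passed an adjusted p under 0.05. Snord22 sits at 2.50 against control in both overexpressing groups and at 0.00 between them.

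With overexpression the host genes had smaller fold changes than the snoRNAs inside them. Snhg1, the noncoding host of Snord22, was at 42.79, 45.64 and 56.78 TPM in controls, 65.37, 67.01 and 67.63 TPM with overexpression, and 53.87, 54.99 and 49.46 TPM with EGCG. It rose by 0.46 ± 0.0951 (SE) with overexpression (limma, Benjamini-Hochberg adjusted p = 0.002535) and fell by 0.33 from there with EGCG (limma, Benjamini-Hochberg adjusted p = 0.01574), while Snord22 averaged 3738 TPM with overexpression and 3897 TPM with EGCG. The fall of Snhg1 kept its sign under every scaling tried but passed the threshold under 2 of 5. Snord22 exceeded Snhg1 in TPM by 14.4 ± 5.74 times in control, 56.1 ± 7.05 times with overexpression and 73.4 ± 27.2 times with EGCG (each SD over 3 libraries), and the control ratios did not overlap those of either other group. In an exact two-sided permutation test each of these 2 separations had p = 0.1, the smallest that 3 against 3 libraries allow. Between EGCG and overexpression the ratios overlapped (exact two-sided permutation p = 0.5).

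Snord22 lies whole inside an exon of 3 of the 18 annotated Snhg1 isoforms, which keep its intron. Those 3 summed to 8.78 ± 0.591 TPM in controls, 8.65 ± 0.300 TPM with overexpression and 7.57 ± 0.190 TPM with EGCG (each SD over 3 libraries). Of the 18, 5 overlap Snord22 in an exon at least in part, and the isoforms with no such overlap summed to means of 39.1, 56.8 and 44.2 TPM. Reads from Snord22 and from these isoforms share sequence and were divided by the authors' estimation, so the split between them is uncertain.

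**Figure D4:**
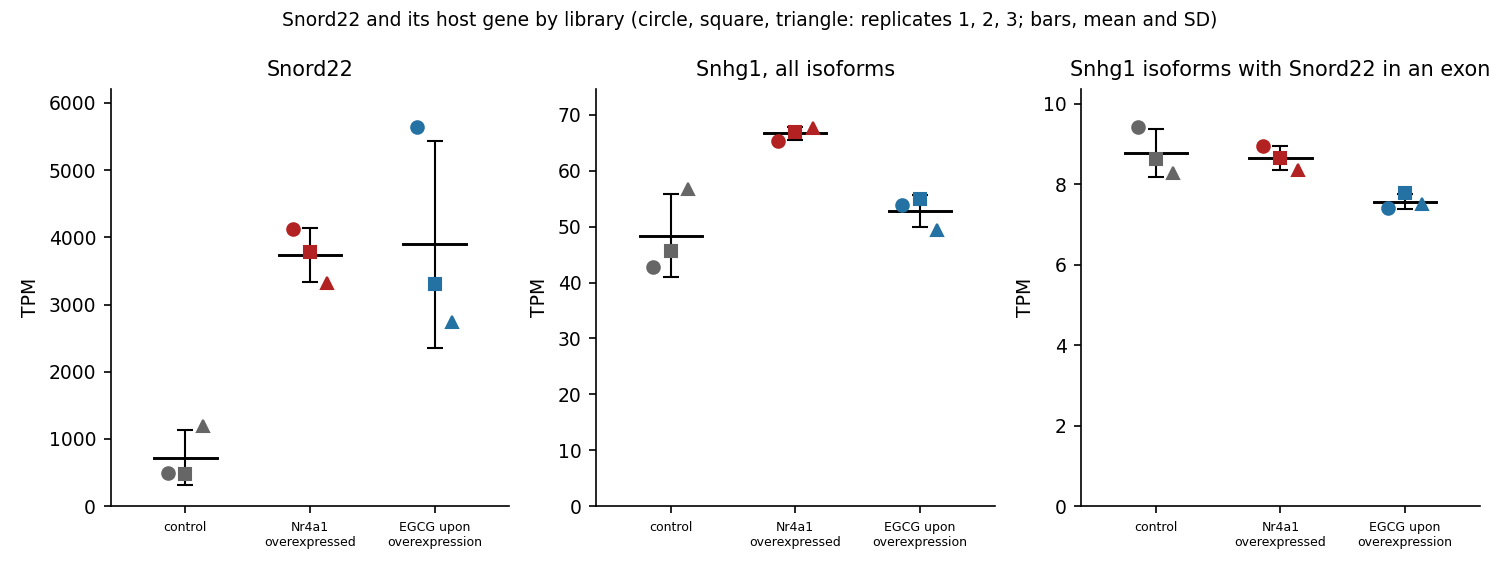
TPM by library of Snord22, of its host Snhg1 over all isoforms, and of the 3 Snhg1 isoforms that hold Snord22 in an exon, with group means and SD (n = 3). Snord22 rises from a mean of 722.3 to 3738 TPM with overexpression while the 3 isoforms stay between 7.41 and 9.43 TPM in all 9 libraries.

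Rps3, a protein of the small ribosomal subunit and host of both Snord15 genes, was at 110.06, 116.33 and 138.26 TPM in controls, 127.96, 122.42 and 124.72 TPM with overexpression, and 147.69, 144.91 and 151.08 TPM with EGCG. It was not called with overexpression (log2 difference 0.05; limma, Benjamini-Hochberg adjusted p = 0.6305), a value whose sign flipped under 3 of 4 other scalings. It rose with EGCG over overexpression by 0.24 (limma, Benjamini-Hochberg adjusted p = 0.02924). The ratios of Snord15b and of Snord15a to Rps3 lay higher in every overexpressing library than in any control (exact permutation p = 0.1 each).

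Snx5 was at 21.07, 21.02 and 22.59 TPM in controls, 32.68, 29.72 and 30.14 TPM with overexpression, and 24.49, 22.99 and 24.25 TPM with EGCG. It rose with overexpression by 0.50 ± 0.0557 (SE; limma, Benjamini-Hochberg adjusted p = 7.498e-05) and fell with EGCG by 0.35 (limma, Benjamini-Hochberg adjusted p = 0.0007234). Snord17 differed from overexpression by -0.25 with EGCG, the same sign as its host, without a call. Its ratio to Snx5 was 3.82 ± 0.865 in control, 5.13 ± 0.442 with overexpression and 5.59 ± 0.862 with EGCG (each SD over 3 libraries).

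Over all hosts of C/D box snoRNAs, 49 of 52 were tested. With overexpression 28 rose and 8 fell (73.5% changed, against 59.5% of all genes; median 0.26 against 0.10). With EGCG over overexpression 8 rose and 22 fell (61.2% changed, against 53.0%; median -0.21 against -0.09). The split depended on the scale: after rescaling to nuclear protein-coding genes it was 24 against 12 and 14 against 17, and for all genes it went from 4561 higher and 2545 lower to 3812 and 3219 with overexpression, and from 2250 and 4080 to 3462 and 2607 with EGCG. By class, 6 of 11 noncoding hosts tested rose and 3 fell with overexpression, 16 of 25 other protein-coding hosts rose and 2 fell, and 6 of 13 ribosomal protein hosts rose and 3 fell. Hosts of the snoRNAs at 0 therefore moved in both directions, and the snoRNAs in them could not be followed.

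Of the genes of the C/D box core proteins, 3 of 4 were highest in the overexpression group. Fbl, the methyltransferase, was at 24.66, 25.44 and 24.28 TPM in controls, 44.89, 44.97 and 43.38 TPM with overexpression, and 24.68, 29.04 and 28.92 TPM with EGCG. Nop56 and Nop58, the scaffold proteins that bridge the C and D boxes, are themselves hosts of snoRNAs; Nop56 averaged 32.7, 53.0 and 36.5 TPM in the 3 groups and Nop58 70.6, 91.7 and 54.8 TPM. With overexpression these 3 of the 4 core genes rose, by log2 changes of 0.82, 0.68 and 0.38 (limma, Benjamini-Hochberg adjusted p = 1.125e-05, 9.25e-06 and 0.006351), and with EGCG all 3 fell from that level, by 0.67, 0.53 and 0.73 (limma, Benjamini-Hochberg adjusted p = 4.673e-05, 5.534e-05 and 0.000204). Snu13, which binds the kink-turn formed by the boxes, was called in neither (-0.13 and -0.15), although it was called lower with overexpression under 3 of 5 scalings. Among all genes tested, 38.2% were called higher with overexpression, 34.1% lower with EGCG over overexpression and 7.1% lower with EGCG against control. Against control, the EGCG group was lower in Nop58 (-0.35; limma, Benjamini-Hochberg adjusted p = 0.03213) and Snu13 (-0.27; adjusted p = 0.0185), while all 5 measured snoRNAs were higher. The core genes were split there, since Fbl and Nop56 lay above control under every scaling, by 0.08 to 0.21 and by 0.09 to 0.22. These 2 were not called on the main scale, but Fbl was called under 1 and Nop56 under 3 of 5 scalings.

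**Figure D5:**
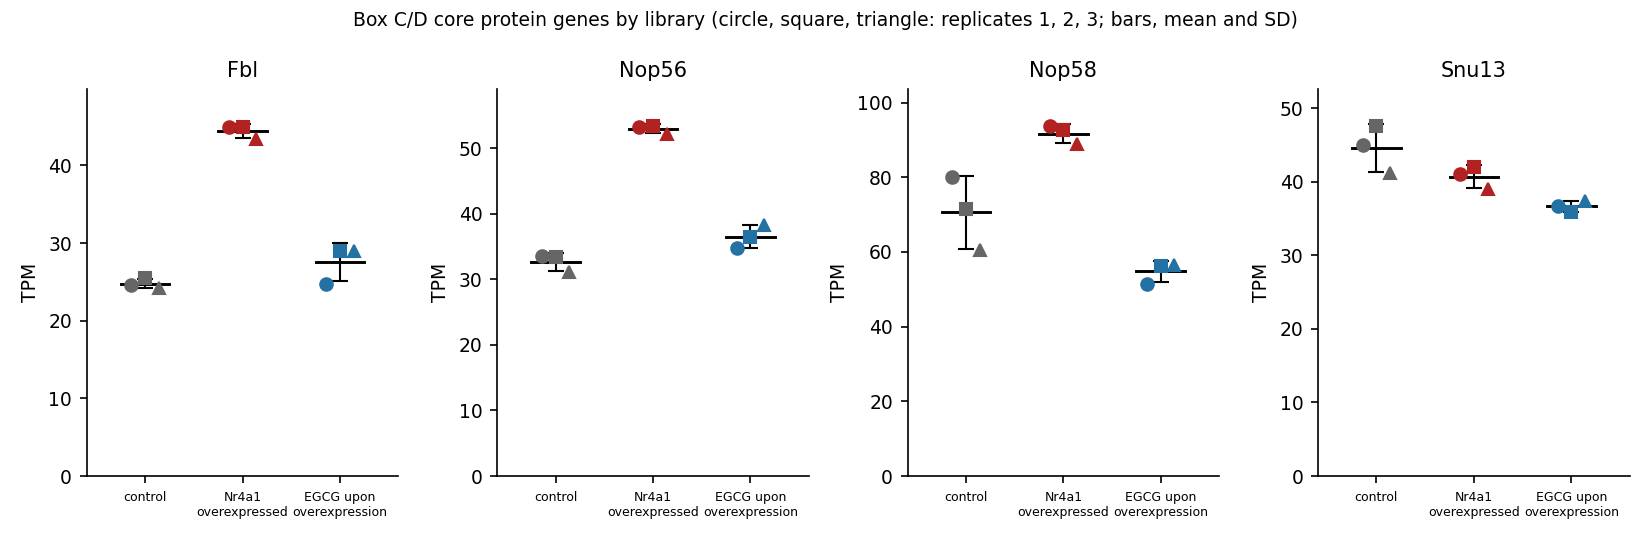
TPM by library of the 4 genes encoding the C/D box core proteins, with group means and SD (n = 3; each axis starts at 0). Fbl, Nop56 and Nop58 are highest in the 3 overexpression libraries and lower in the EGCG libraries, and Snu13 does not show that peak.

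Assembly factors, which load the core proteins onto new snoRNAs, numbered 10 tested of 11, and 7 rose and 2 fell with overexpression, Ruvbl2 and Taf9, against 38.2% higher and 21.3% lower among all genes tested. The ATPase gene Ruvbl1 rose (0.60; limma, Benjamini-Hochberg adjusted p = 0.0001926), as did the adaptor Pih1d1 (0.50; adjusted p = 0.0004251) and the box C/D factor Znhit6 (0.87; adjusted p = 0.0007721). Ruvbl2, the partner of Ruvbl1, fell by 0.39 (limma, Benjamini-Hochberg adjusted p = 0.0002009). With EGCG over overexpression 1 rose and 6 fell, against 18.8% and 34.1% of all genes tested. Ruvbl1 fell by 0.54 (limma, Benjamini-Hochberg adjusted p = 0.0004616) and Ruvbl2 was the one that rose, by 0.25 (adjusted p = 0.003198). The 2 partners thus moved in opposite directions in both comparisons, which share the overexpression libraries.

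Among genes that release, trim and cap snoRNAs, 16 of 26 tested rose and 1 fell with overexpression, and 0 rose and 14 fell with EGCG over overexpression. The shares changed, 65.4% and 53.8%, were near those of all genes tested, 59.5% and 53.0%. By direction, all genes tested gave 38.2% higher and 21.3% lower with overexpression, and 18.8% higher and 34.1% lower with EGCG. On this scale the list thus leaned further in direction than all genes did, in both comparisons. The nuclear exosome ribonuclease Exosc10 rose by 0.74 (limma, Benjamini-Hochberg adjusted p = 1.155e-05) and then fell by 0.55 (adjusted p = 8.201e-05). The exosome subunit Exosc2 rose by 0.83 (limma, Benjamini-Hochberg adjusted p = 1.623e-05) and fell by 0.70 (adjusted p = 6.13e-05), and the cap-binding gene Ncbp2 rose by 0.63 (adjusted p = 1.944e-05) and fell by 0.65 (adjusted p = 2.441e-05). The gene that fell with overexpression was Tent4b, the noncanonical poly(A) polymerase that marks nuclear RNAs for trimming (-0.34; limma, Benjamini-Hochberg adjusted p = 0.00634). Ssb, Exosc1 and Mtrex of this list were not called on the main scale, but were called lower under 4, 2 and 2 of 5 scalings. After rescaling to nuclear protein-coding genes the counts were 13 and 4 with overexpression, and 3 and 11 with EGCG.

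The small-subunit processome, the particle in which the U3 RNA works, showed 18 of 26 genes higher and 2 (Mphosph10 and Utp11) lower with overexpression, and 0 higher and 18 lower with EGCG over overexpression. Rrp9, the protein specific to the U3 particle, rose by 0.98 (limma, Benjamini-Hochberg adjusted p = 4.481e-06) and fell by 0.85 (adjusted p = 1.497e-05). Dcaf13 rose by 0.98 (limma, Benjamini-Hochberg adjusted p = 4.483e-06) and fell by 0.69 (adjusted p = 4.209e-05). Of 14 genes of the RNA polymerase I machinery, which makes the ribosomal RNA precursor, 9 rose and 0 fell with overexpression, and 0 rose and 8 fell with EGCG. Taf1c, a subunit of its promoter selectivity factor, rose by 1.44 (limma, Benjamini-Hochberg adjusted p = 1.778e-06) and fell by 1.24 (adjusted p = 4.908e-06). These counts stand beside 38.2% of all genes higher and 34.1% lower in the same comparisons.

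Of 7 nucleolar and Cajal body genes, 2 rose with overexpression, the Cajal body genes Wrap53 (0.71; limma, Benjamini-Hochberg adjusted p = 0.000174) and Coil (0.27; adjusted p = 0.01212), and 3 fell with EGCG over overexpression, Wrap53 (-0.56; adjusted p = 0.0008566), nucleolin Ncl (-0.47; adjusted p = 0.007998) and Nolc1 (-0.24; adjusted p = 0.0227). Of 6 proteins of the H/ACA particle, 2 (Dkc1 and Gar1) rose and 1 (Naf1) fell with overexpression, and 2 (Nop10 and Naf1) rose and 2 (Dkc1 and Gar1) fell with EGCG over overexpression. With overexpression 2 of the 7 (28.6%) and 3 of the 6 were thus called, against 59.5% of all genes tested. With EGCG over overexpression 42.9% and 66.7% were called, against 53.0% of all genes tested (18.8% higher and 34.1% lower). The 3 nucleolar and Cajal body genes that fell with EGCG became 1 under quantile normalization.

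The rise against control was not shown to be particular to C/D box RNAs. Of 27 tested of 38 Snora genes, 13 rose and 0 fell with overexpression (48.1% changed; median 0.99, against 0.95 for the 5 C/D box RNAs). Of 128 tested of 1293 other small RNA genes of 112 to 250 nt, 49 rose and 2 fell (39.8% changed; median 1.08). Among all genes tested 59.5% changed, so neither share changed exceeded the background. The share called higher was 38.2% over all genes tested, which the 13 of 27 Snora genes exceeded and the 49 of 128 were near. Both medians lay above the 0.10 of all genes tested. By length the median followed no single direction: it was 0.75 among 17 small RNA genes of 112 to 125 nt, 1.78 among 52 of 126 to 135 nt, the length range of Snord22 and Snord118, 0.95 among 32 of 136 to 150 nt, 0.61 among 22 of 151 to 200 nt and 0.86 among 14 of 201 to 300 nt. Of 4 Scarna genes tested of 6, which encode Cajal body relatives of the snoRNAs, 2 (Scarna2 and Scarna6) rose and 1 (Scarna10) fell. Rnu3a, a gene of the C/D box RNA U3 that lies outside the rule by its symbol, is 213 nt long and rose by 0.74 ± 0.194 (SE; limma, Benjamini-Hochberg adjusted p = 0.009009), from a mean of 284.5 to 471.8 TPM, with overlapping groups. Between EGCG and overexpression it differed by 0.07 (limma, Benjamini-Hochberg adjusted p = 0.7765). Unlike the 5 C/D box RNAs, some genes of these sets reached 1 TPM in 3 libraries only through the overexpressing groups. Snora5c and Snora69, for example, averaged 0 TPM in control and 23.8 and 4.31 TPM with overexpression. A rise of such genes is fixed in part by the filter, so the medians and counts of these sets can lean upward. A test of C/D box RNAs against these other small RNAs was not made, and the part of length in the differences was not tested.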

How the data were processed

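RNA from 9 MIN6 libraries in 3 groups of 3 was analysed, grouped by the sample titles. The authors deposited TPM per Ensembl transcript, a unit in which each library sums to about 1000000. Per the submitters' processing notes they used bcl2fastq 2.20, FastQC 0.11.9, cutadapt 2.8, STAR 2.7.1a, RSEM 1.2.31 and the GRCm39 build. Per the labels' protocols, an RNeasy kit was used for extraction and TruSeq stranded total RNA chemistry for the libraries. No annotation release, read length or size filter is given in the sources used here.

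Identifiers were joined to GENCODE M21 (GRCm38), which matched 138346 of 142435 (97.13%) and gave names, biotypes, lengths, hosts (the shortest gene on the same strand that holds the snoRNA) and sequences. No coordinates are printed, since the builds differ. Unmatched identifiers, left out, held 18.0% to 20.6% of TPM. After summing per gene, the 11950 genes reaching 1 TPM in 3 or more libraries were tested on log2(TPM + 1) with limma 3.58.1 in R 4.3.3 (all 9 libraries, variance trend, two-sided, Benjamini-Hochberg at 0.05); this scale understates changes of low genes. Errors are SD of TPM or limma's SE. Total depth is unknown; reads per snoRNA were estimated from the steps between low TPM values of like length.

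The C/D box genes and all lists were chosen with earlier results of these data known. Named were the snoRNAs of highest TPM, called ones by fold change, hosts of those named, Nr4a1, and up to 4 called genes of each list by smallest adjusted p. Snord37, Snord67, their hosts, the snoRNAs at 0 named by role, Snord43, Rnu3a, Snora5c, Snora69, Irx2, Tent4b and single genes named to fill a short count were named after values were seen. So were Ssb, Exosc1 and Mtrex. In 5 simulated draws of 11950 genes with 200 changed, for overexpression against control, 72.4% of log2 changes of 0.5 and 96.6% of changes of 1 were recovered, and 4.6% of calls were false. In the data 59.5% of genes were called, and the draws held no shift of scale and were not limited to short RNAs. These rates therefore do not carry over to the snoRNA calls. Alternatives covered the pseudocount, filter, scaling, samples in the fit, variance trend, library weights, a replicate block and leaving out each library. Python 3.11.15, pandas 2.3.3, scipy 1.17.1, Biopython 1.88 and matplotlib 3.10.9 were also used.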

Additional observations from a re-analysis of the deposited data

How the results depend on the processing

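No C/D box snoRNA call changed direction under an alternative. With overexpression against control 5 C/D box snoRNAs were called, and 2 to 5 when a library was left out, with 2 without control replicate 2 and 3 without control replicate 1 or any overexpression library. Over all alternatives, single calls of this comparison were kept 89 times and lost 16 times. Some of these losses came under settings other than leaving out a library. With EGCG against overexpression 0 were called, and 0 to 2 when a library was left out. Snord15b alone was called there, as higher, under quantile normalization (1 call), rescaling to nuclear protein-coding genes (1), a fit of only the 6 libraries compared (1) and library weights (1), with adjusted p from 0.0151 to 0.0216. Without control replicate 3 both Snord15b and, as lower, Snord17 were called. With EGCG against control 5 were called, 3 in a fit of only the 6 libraries compared, and 2 to 5 when a library was left out, with 2 without EGCG replicate 1 and 3 without control replicate 1 or 2. The counts of changed hosts stayed within 1.5 times of 36 and 30, and each group's summed TPM moved by less than its SD. The cause of the changed counts was not tested. With the replicate number as a block, 5, 0 and 4 of the 5 were called in the 3 comparisons. The numbers were not taken to pair the libraries: the correlations of same-numbered deviations ran from -0.021 to 0.214, and 7 of 9 libraries were closest to their own number, a hint from the data and not the design. Depth limits Snord118 most, at 2 to 5 estimated reads in control, and transcripts of at most 111 nt, all listed at 0, cannot be assessed from these values.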

Other observations

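Rny1, a Y RNA gene with a transcript of 112 nt, at the edge of detection, was at 7384, 16937 and 6327 TPM in the replicate 3 libraries of control, overexpression and EGCG, and was listed at 0 in the other 6 libraries. Snora78 was at a mean of 36.1 ± 17.0 TPM in control and 307.7 ± 69.7 TPM with overexpression (SD, n = 3 each), a log2 fold change of 3.17 ± 0.401 (SE; limma, Benjamini-Hochberg adjusted p = 0.0001539), larger in size than that of Snord22. The difference between the changes of these 2 snoRNAs was not tested. Both genes of this paragraph were chosen after their values were seen.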
